A study of Pimephales promelas with 20 samples.

Results

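Small RNA libraries of whole fathead minnow larvae, a freshwater fish kept as a toxicology model, fell into 2 separate classes by a single microRNA entry, novelMiR_18155. The classes were chosen by its measured reads-per-million level (rpm, relative to the forward miRNA total of the library): libraries at 10 rpm or more were called high, and the others low. There were 11 high libraries (5 EE2 and 6 control) and 9 low libraries (5 EE2 and 4 control) of 20 in all. EE2 larvae were exposed statically from 48 h after hatching, for 48 h, to 10 ng/L of 17α-ethinylestradiol, a synthetic estrogen, and control larvae to 0 ng/L. Total RNA of whole larvae, taken at 96 h, went into small RNA libraries. The labels give neither sex, strain nor parentage, and no number of larvae behind each library, so p-values measure only the spread between these libraries. The classes are not groups of the study.

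MicroRNAs are short RNAs that guide repression of messenger RNAs, and piRNAs are short RNAs best known as silencers of transposons in animal germ cells, those of fish included. miRNA counts of all 20 libraries were analysed. piRNA counts, on zebrafish piRNA sequences, were analysed for 8 high libraries (4 EE2 and 4 control) and 7 low libraries (3 EE2 and 4 control). The numbered entries carry no known miRNA name, so no function is given to novelMiR_18155 or to any other entry, and the labelled tissue could not be set against marker miRNAs. In RNA from whole larvae, fewer cells of a type and less RNA per cell cannot be told apart.

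novelMiR_18155 was measured at 166, 99.8, 88.5, 85.5 and 77.1 rpm in the 5 high EE2 libraries. In the 6 high control libraries it was at 223, 179, 113, 100.5, 86.7 and 66.3 rpm. The 5 low EE2 libraries held 3.04, 1.51, 1.504, 1.26 and 0.481 rpm, and the 4 low control libraries held 2.89, 1.55, 1.32 and 0.632. The EE2 and control values overlapped within each class. No library lay between the classes: the lowest high library, control 8, was 21.8 times above the highest low library, EE2 8. The medians were 99.8 rpm in high libraries and 1.504 in low libraries, a ratio of 66.4. These values chose the classes and are given as a description, without a test.

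The low libraries were not empty of the sequence. They held 6 to 73 novelMiR_18155 reads each, and high libraries held 578 to 3005. With 6 reads, EE2 10 had an exact 95% Poisson interval of 0.177 to 1.05 rpm, which covers counting error only, since reads are not independent molecules. Of the 528 forward miRNA entries, novelMiR_18155 had the widest gap between neighbouring libraries with at least 4 libraries on each side. On the log2 scale of rpm plus 0.5 the gap was 4.24, and 10 entries had a gap of 1 or more. Its SD over the 20 libraries was also the largest of the 528, at 3.03 on the same scale. No association of class with exposure was detected (odds ratio 1.47, Fisher's exact test, two-sided, p = 1).

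**Figure D1:**
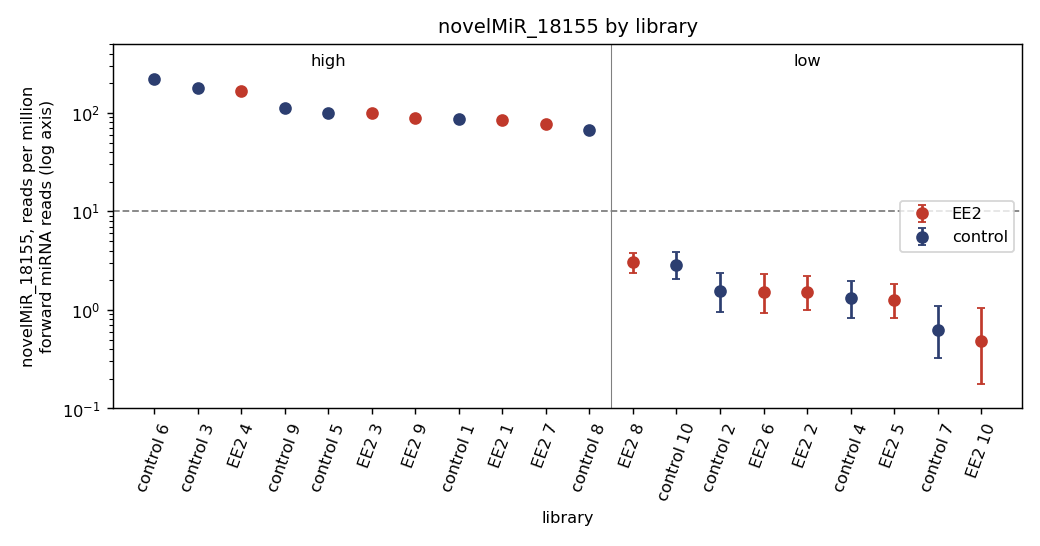
novelMiR_18155 in rpm (log axis) in each of the 20 libraries, the 11 high libraries left of the 9 low ones, with exact 95% Poisson intervals as bars (counting error only) and the threshold of 10 as a dashed line. High libraries lie at 66.3 or above and low libraries at 3.04 or below, with EE2 and control libraries on both sides.

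None of 8 library measures passed the adjusted threshold between high and low libraries. Forward miRNA reads were 14.6 ± 3.49 M in high libraries and 17.0 ± 3.84 M in low libraries (SD, n = 11 and 9; exact permutation within exposure, two-sided, p = 0.190, adjusted p = 0.641). The 10 most abundant miRNAs took 67.1% ± 3.08 of reads in high libraries and 66.8% ± 0.962 in low libraries (exact permutation, adjusted p = 1). piRNA reads per 100 miRNA reads were 12.6 ± 2.72 in 8 high libraries and 13.2 ± 4.22 in 7 low libraries (exact permutation, adjusted p = 1). Forward piRNA entries with at least 1 read numbered 1986 ± 25.7 in high libraries and 2012 ± 9.81 in low libraries. That difference did not pass (exact permutation, p = 0.0294, adjusted p = 0.235), though it did without control 1 (difference -31.5 entries, exact permutation, adjusted p = 0.0261). The measure was not adjusted for read depth, and control 1 was the deepest high library (3.01 M forward piRNA reads). Whether depth bears on the difference was not tested. Forward piRNA reads came to 1.91 ± 0.639 M in high libraries and 2.25 ± 0.571 M in low libraries (exact permutation, p = 0.240, adjusted p = 0.641).

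With edgeR, no other miRNA passed the test of high against low libraries, with exposure as a covariate and novelMiR_18155 left out. Of 485 forward miRNA entries, 0 (0% in each direction) had an adjusted p under 0.05 in edgeR's quasi-likelihood test, and the smallest adjusted p was 0.0592. An unadjusted p under 0.05 was found for 89 entries (18.4%), 49 lower and 40 higher in high libraries, where 24.25 are expected. limma voom called 0 and had 93 entries at an unadjusted p under 0.05. DESeq2 called 34, with 19 lower (3.92%) and 15 higher (3.09%) in high libraries and no adjusted p for 207 entries. Its adjustment left those 207 out, while edgeR's covered all 485, so the 2 counts are not like for like. Adjusted over all 485, novelMiR_705 still passed (DESeq2 adjusted p = 0.0392). Those of the 34 with a larger p did not, such as novelMiR_23472 (DESeq2 adjusted p = 0.0607 in place of 0.0455). Some of the 207 passed when so adjusted, such as novelMiR_22248 (DESeq2 adjusted p = 0.0167). For 371 entries (76.5%) the 95% interval stayed inside 2-fold in both directions. The classes overlapped for every one of the 485 entries.

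In the 3 miRNAs with the smallest p among those with higher levels in high libraries, the measured differences were small. The smallest p belonged to novelMiR_21745. Its level, in TMM-normalised counts-per-million units (CPM, relative to the forward miRNA total here and to the forward piRNA total for piRNAs), had a lowest, median and highest value of 310, 352 and 382 in high libraries and 260.4, 295 and 335 in low libraries. Its log2 fold change was 0.26 ± 0.05 (SE), with an unadjusted p of 0.000122 in edgeR's quasi-likelihood test (adjusted p = 0.0592). novelMiR_42437 averaged 263 ± 38.7 CPM in high libraries and 199.6 ± 26.2 CPM in low libraries (SD, n = 11 and 9; edgeR adjusted p = 0.0751). novelMiR_3490 averaged 245 ± 21.3 CPM in high libraries and 188 ± 39.3 CPM in low libraries (edgeR adjusted p = 0.0751). All 3 overlapped between the classes, and DESeq2 called each of them (adjusted p = 4.34e-05, 0.00555 and 0.00703).

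In the 3 miRNAs with the smallest p among those with lower levels in high libraries, the measured differences were larger. At an unadjusted edgeR p under 0.05, the median log2 fold change was -0.73 for the 49 lower entries and 0.32 for the 40 higher ones. These entries were selected on p, and over all 485 the median was -0.01. The 49 lower entries had a median mean level of 13.5 CPM and the 40 higher ones of 161 CPM. Whether abundance bears on the size of the differences was not tested. novelMiR_17431 had a lowest, median and highest level of 10.2, 39.6 and 96.9 CPM in high libraries and 42.5, 73.1 and 299.8 CPM in low libraries. The highest values, 299.8, 259 and 254 CPM, were in EE2 5, control 7 and control 2, while 5 of the 9 low libraries (42.5 to 73.1 CPM) lay within the range of the high libraries. Its log2 fold change came to -1.73 ± 0.41 (SE; edgeR adjusted p = 0.0751). novelMiR_23300 averaged 5.96 ± 3.62 CPM in high libraries and 18.2 ± 20.9 CPM in low libraries (SD; edgeR adjusted p = 0.0751). Its highest values, 68.8, 33.2 and 15.9 CPM, were in control 2, EE2 5 and control 7. The other low libraries (4.21 to 11.9 CPM) lay within the range of the high libraries (2.30 to 13.6 CPM). novelMiR_42125 averaged 0.918 ± 0.393 CPM in high libraries and 1.89 ± 0.815 CPM in low libraries (edgeR adjusted p = 0.0751). DESeq2 called novelMiR_17431 and novelMiR_23300 (adjusted p = 0.00128 and 0.00451) and gave no adjusted p for novelMiR_42125. Adjusted over all 485 entries, the DESeq2 p of novelMiR_42125 was 0.0132. Of the 49 entries with a lower level in high libraries and an unadjusted p under 0.05, 14 had their 3 highest values in control 2, control 7 and EE2 5, against 15 such entries among all 485. These 3 are all low libraries and were chosen after seeing the data. Entries highest in them tend to be lower in high libraries by construction, so the 2 counts are a description only.

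The calls in the forward miRNA table turned on single libraries. Without control 1, a high library, 40 of 481 entries passed (33 lower and 7 higher in high libraries). Without control 4, a low library, 29 of 495 passed (24 lower and 5 higher). Leaving out EE2 8 gave 3 and EE2 2 gave 2, and each of the other 16 libraries left out in turn gave 0. Without control 2, control 7 and EE2 5 together, chosen after seeing the data, 0 of 503 entries passed. An unadjusted edgeR p under 0.05 was then found for 13 of the 503, against 89 of 485 in all libraries. The log2 fold change of novelMiR_17431 was then -0.75, that of novelMiR_23300 was -0.56 and that of novelMiR_21745 was 0.21.

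The most abundant miRNAs did not differ detectably. novelMiR_21068 averaged 192242 ± 28571 CPM in high libraries and 176477 ± 17428 CPM in low libraries (SD, n = 11 and 9; edgeR adjusted p = 0.467), with a 95% interval of the log2 fold change of -0.05 to 0.30. novelMiR_45908 had an interval of -0.04 to 0.31 (edgeR adjusted p = 0.445). For novelMiR_27736 it was -0.27 to 0.14 (edgeR adjusted p = 0.778). Each interval lies well inside a 1.5-fold difference.

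On the opposite strand of the miRNA reference sequences, 0 of 50 entries (0%) passed edgeR's quasi-likelihood test, while an unadjusted p under 0.05 was found for 8 (16%). DESeq2 called 1 entry (2%), novelMiR_27042. Its level had a lowest, median and highest value of 18.4, 23.9 and 27.0 CPM in high libraries and 13.4, 17.4 and 22.9 CPM in low libraries. The log2 fold change of novelMiR_27042 was 0.36 ± 0.11 (SE; edgeR adjusted p = 0.0819, DESeq2 adjusted p = 0.0162). In the other direction, novelMiR_10848 averaged 9.04 ± 2.72 CPM in high libraries and 12.7 ± 3.50 CPM in low libraries (SD; edgeR adjusted p = 0.0819). The median log2 fold change was 0.16 over the 50 entries tested when scaled to the forward table. It was 0.00 over the 45 entries tested when scaled to the reverse table itself. Leaving out EE2 8 gave 3 calls, EE2 3 gave 2 and control 1 gave 1, and each of the other 17 libraries left out gave 0.

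**Figure D2:**
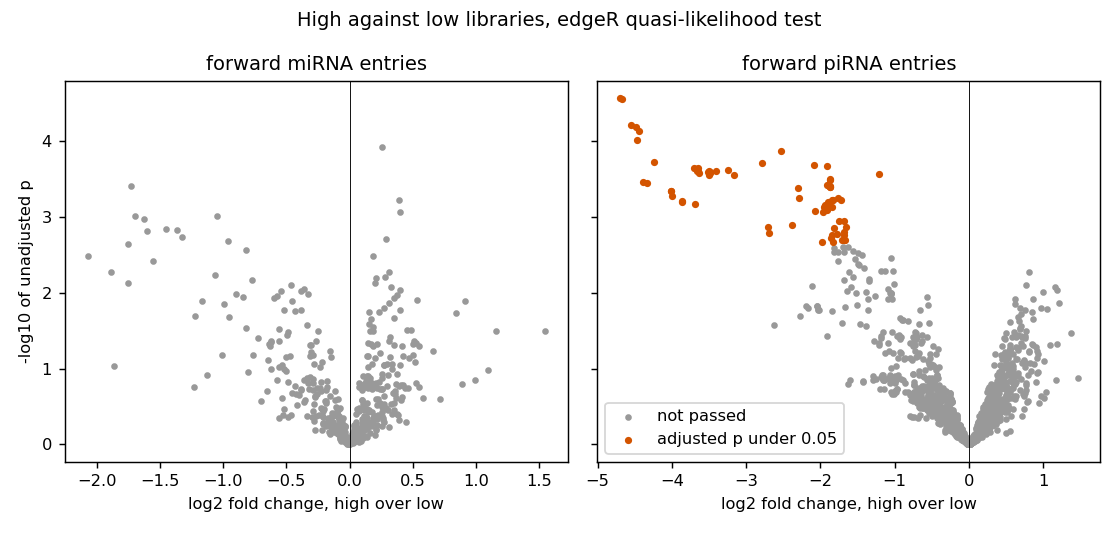
Log2 fold change of high over low libraries (x axis) against -log10 of the unadjusted p (y axis) for 485 forward miRNA entries and 1725 forward piRNA entries, with entries past an adjusted p of 0.05 in orange. All 77 entries that passed are piRNA entries with a lower level in high libraries.

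A set of piRNA entries was lower in libraries high in novelMiR_18155. Of 1725 forward piRNA entries tested over 15 libraries, 77 passed with edgeR's quasi-likelihood test (adjusted p from 0.0196 to 0.0489), all 77 lower in high libraries (4.46%) and 0 higher (0%). An unadjusted p under 0.05 was found for 207 (12%). The 77 had a median log2 fold change of -1.96, with a range of -4.70 to -1.21, against a median of 0.02 over all entries tested. In 37 of the 77 the level was more than 4-fold lower. In 73 of the 77 all 8 high libraries lay below the median of the low libraries, and in the other 4 it was 7 of 8. The 77 were selected for a class difference in these same libraries, so those counts describe them and are not a separate test. The 77 entries together took 0.0939% ± 0.0483 of forward piRNA reads in high libraries and 0.529% ± 0.486 in low libraries (SD, n = 8 and 7). They are thus a minor part of the piRNA reads in both classes.

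The call rested on a few libraries and on the test used. The number that passed was 0 without control 2, without EE2 5 or without control 3, 26 without control 9, 28 without control 6, 38 without EE2 4, 40 without control 7, 52 without control 1 and 128 without control 4. Of the 128 without control 4, 124 were lower and 4 higher in high libraries. Of the 52 without control 1, 51 were lower and 1 higher. limma voom called 0 of the 1725 (174 at an unadjusted p under 0.05), and DESeq2 called 117, with 110 lower (6.38%) and 7 higher (0.406%) in high libraries.

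Control 2, control 7 and EE2 5, all of them low libraries, stood apart in these entries. They held the 3 highest levels in 76 of the 77 entries, and in 118 of all 1725 tested (6.84%). As the 77 were selected for lower levels in high libraries, highest values in low libraries are partly built in. The 77 entries took 1.44% of forward piRNA reads in control 2, 0.834% in EE2 5 and 0.650% in control 7. The other low libraries, control 10, EE2 8, EE2 6 and control 4, had 0.305%, 0.265%, 0.144% and 0.0635%, and the high libraries had from 0.0538% in EE2 4 to 0.206% in control 1. Among the 15 libraries with piRNA counts, control 7 and EE2 5 had the lowest measured novelMiR_18155, at 0.632 and 1.26 rpm. Control 4 (1.32 rpm), EE2 6 (1.51 rpm) and control 2 (1.55 rpm) came next. The exact Poisson intervals were 0.327 to 1.10 rpm in control 7 and 0.822 to 1.84 in EE2 5. They were 0.836 to 1.98 in control 4, 0.936 to 2.31 in EE2 6 and 0.960 to 2.37 in control 2. All of these intervals overlap, so the order of these libraries is not resolved. Without control 2, control 7 and EE2 5 together, chosen after seeing the data, 0 of 1886 forward entries passed with edgeR's test. An unadjusted p under 0.05 was found there for 140. All 77 entries still had a negative log2 fold change there, with a median of -1.01 against 0.02 over all entries, and 36 of the 77 had an unadjusted p under 0.05. The 77 were selected on libraries that include these 12, so such counts describe them and are not a separate test.

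Of the other libraries, control 4 and control 1 lay closest to the opposite class. Control 4, with 1.32 novelMiR_18155 rpm, was the lowest of the 7 low libraries in 75 of the 77 entries and lay below the highest high library in 76. Control 1, with 86.7 rpm, was the highest of the 8 high libraries in 49 of the 77. A low novelMiR_18155 level therefore did not go with a high level of these piRNA entries in every library.

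The 77 entries did not vary independently. The median correlation between pairs of them over the 15 libraries was 0.89 on the log2 scale of CPM plus 0.5. The lowest was 0.57. All entries share each library's depth and scaling, and the 77 were selected for the same class difference in these libraries. Correlation between them is thus partly built in, and a median over all tested pairs was not computed. A partner with a correlation over 0.98 was found within the 77 for 48 of them (62.3%). Of all 1725 entries tested, 46.4% had such a partner among the 1725. That pool is larger, so the 2 shares are not like for like. Within the 77, 2 entries had identical counts in every library. How far such entries count the same reads was not tested.

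**Figure D3:**
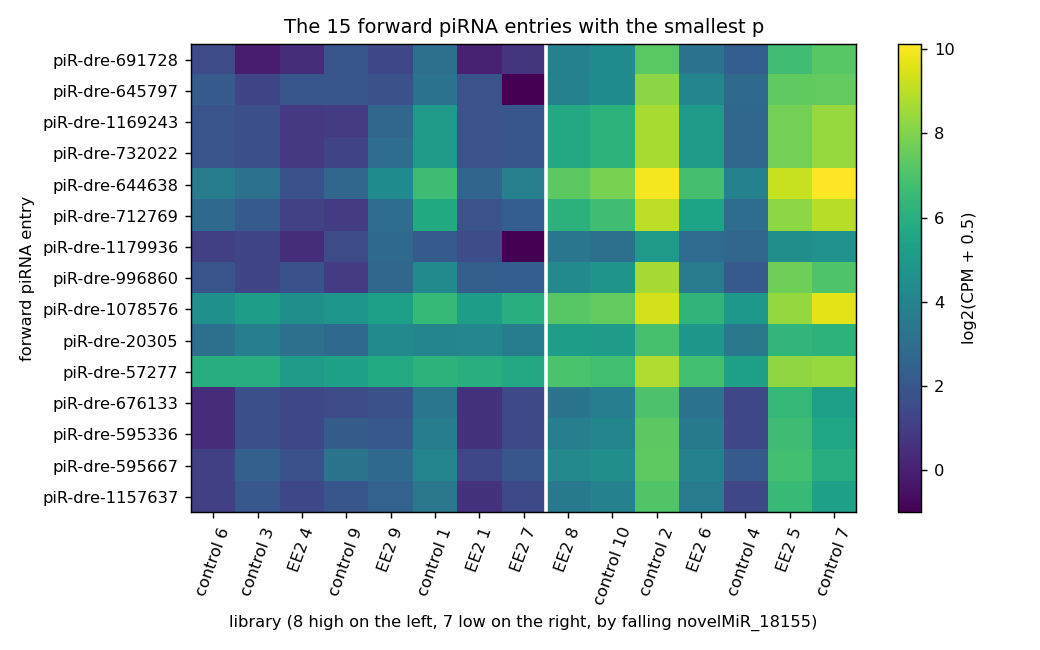
Level of the 15 forward piRNA entries with the smallest p, as log2 of CPM plus 0.5 (colour), in the 8 high libraries left of the white line and the 7 low libraries right of it, ordered by falling novelMiR_18155. Control 2, EE2 5 and control 7 carry the brightest columns, control 4 resembles the high libraries, and control 1 is the brightest high library in 13 of the 15 rows.

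piR-dre-644638 was the most abundant of these 15 entries in low libraries. In high libraries it was at 20.3, 13.7, 5.68 and 3.02 CPM after EE2 and at 102, 12.2, 8.37 and 5.90 CPM in controls, the 102 CPM being control 1. In low libraries it was at 586, 157 and 114 CPM after EE2 and at 1114, 1005, 239 and 14.5 CPM in controls, the 14.5 CPM being control 4. The classes overlapped through control 4 alone: every other low library lay above every high library. Its log2 fold change was -4.45 ± 0.85 (SE; edgeR quasi-likelihood, adjusted p = 0.0196). Without control 2, control 7 and EE2 5 it was -2.83 and did not pass (edgeR adjusted p = 0.418).

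**Figure D4:**
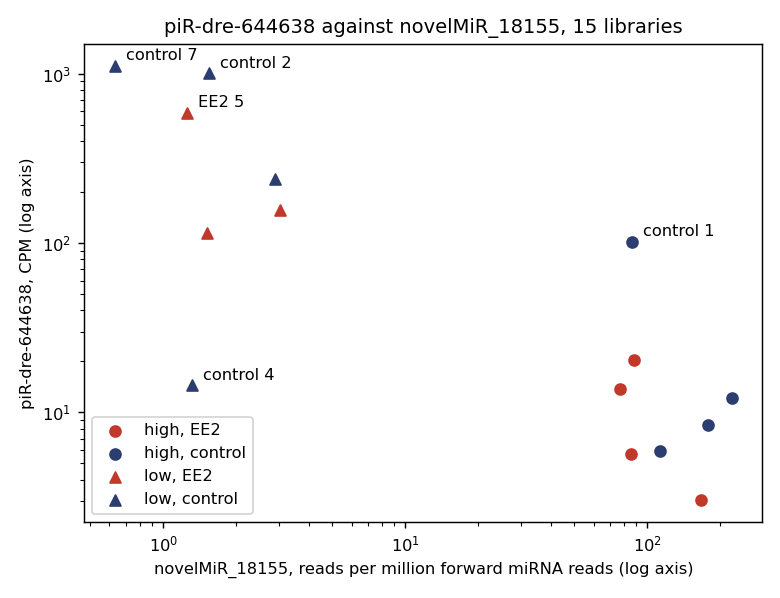
piR-dre-644638 in CPM against novelMiR_18155 in rpm, both on log axes, in the 15 libraries with piRNA reads. Of the 8 high libraries 7 lie at 20.3 CPM or below and control 1 at 102, while 6 of the 7 low libraries lie at 114 CPM or above and control 4 at 14.5.

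The entry with the smallest p, piR-dre-691728, had a lowest, median and highest level of 0.399, 1.66 and 8.09 CPM in high libraries and 4.55, 19.99 and 156 CPM in low libraries. The high values were in control 2, control 7 and EE2 5, at 156, 150.4 and 103 CPM, and control 4 lay within the range of the high libraries. Its log2 fold change was -4.70 ± 0.82 (SE; edgeR adjusted p = 0.0196). piR-dre-645797 was close behind, at 0, 3.27 and 8.87 CPM in high libraries and 6.62, 20.6 and 288 CPM in low libraries (lowest, median and highest). Its log2 fold change was -4.68 ± 0.81 (SE; edgeR adjusted p = 0.0196), and EE2 7 had no read of it.

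A block of alike entries followed. piR-dre-1169243 and piR-dre-732022 averaged 6.69 ± 10.5 and 6.93 ± 10.4 CPM in high libraries, and 160 ± 159 and 161 ± 160.4 CPM in low libraries (SD, n = 8 and 7). piR-dre-712769 averaged 10.3 ± 17.7 CPM in high libraries and 217 ± 214 CPM in low libraries, and piR-dre-996860 averaged 5.44 ± 5.58 CPM in high libraries and 113 ± 144 CPM in low libraries. In low libraries the SD of these entries was thus about as large as the mean. Their log2 fold changes ran from -4.54 ± 0.85 for piR-dre-1169243 to -4.25 ± 0.88 for piR-dre-996860 (SE; edgeR adjusted p = 0.0196 for all 4).

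Others of the 15 showed smaller differences. piR-dre-1078576 had a lowest, median and highest level of 22.9, 37.2 and 88.2 CPM in high libraries and 30.2, 175 and 818 CPM in low libraries (log2 fold change, -2.78, SE 0.58). piR-dre-57277 was steadier, at 54.7 ± 12.2 CPM in high libraries and 210.4 ± 150.5 CPM in low libraries (log2 fold change, -1.92, SE 0.41). piR-dre-20305 averaged 12.7 ± 4.81 CPM in high libraries and 54.1 ± 37.1 CPM in low libraries. piR-dre-1179936 averaged 2.50 ± 2.01 CPM in high libraries and 15.5 ± 10.4 CPM in low libraries. All 4 had an edgeR adjusted p of 0.0196.

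The last 4 of the 15, piR-dre-676133, piR-dre-595336, piR-dre-595667 and piR-dre-1157637, had lower fold changes in size than the block above. piR-dre-595667, the most abundant of them, averaged 5.84 ± 4.80 CPM in high libraries and 56.3 ± 60.3 CPM in low libraries. The log2 fold changes ran from -3.70 for piR-dre-595336 to -3.24 for piR-dre-595667 (edgeR adjusted p = 0.0196 for each). In controls 4 and 7, both low libraries, piR-dre-595667 was at 4.14 and 60.9 CPM, so the spread within the low libraries was wide.

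1 forward piRNA entry did not overlap between the classes (0.058% of those tested), and it is named here after its values were seen. piR-dre-578464 was at 2.58 to 5.70 CPM in the 8 high libraries and at 6.82 to 12.1 CPM in the 7 low libraries. It averaged 4.098 ± 1.17 CPM in high libraries and 9.37 ± 1.97 CPM in low libraries (SD). On the log2 scale the fitted difference was -1.21 ± 0.26 (SE), with an adjusted p of 0.0196 in edgeR's test. It rested on 63 reads in all high libraries and 145 in all low libraries, so single libraries held few reads.

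Reads on the opposite strand of the piRNA references gave the same direction. They come from the same 15 libraries, so this is not a separate test. Of 432 reverse piRNA entries 16 passed with edgeR's quasi-likelihood test, all 16 lower in high libraries (3.70%) and 0 higher (0%). Their median log2 fold change was -2.33, against 0.06 over all 432. All 16, selected on the class difference, had their 3 highest levels in control 2, control 7 and EE2 5, which are low libraries. DESeq2 called 24, all lower (5.56%), and limma voom called 0 (47 at an unadjusted p under 0.05). The number was 0 without EE2 5 or control 9, 1 without control 2 or control 3, 5 without control 6 or control 7, 6 without EE2 9, 8 without EE2 4 and 33 without control 4. Of the 33 without control 4, 28 were lower and 5 higher in high libraries. Without control 2, control 7 and EE2 5 together it was 2, and neither was among the 16.

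The first of them, piR-dre-603835, had a lowest, median and highest level of 0, 3.00 and 9.39 CPM in high libraries and 7.03, 18.8 and 279 CPM in low libraries (log2 fold change, -4.67, SE 0.82; adjusted p = 0.0130 in edgeR's test). piR-dre-10286 averaged 3.32 ± 2.13 CPM in high libraries and 20.4 ± 16.6 CPM in low libraries (edgeR adjusted p = 0.0210). piR-dre-1067962 averaged 42.3 ± 22.5 CPM in high libraries and 322 ± 308 CPM in low libraries (edgeR adjusted p = 0.0210). piR-dre-1023349 averaged 2.04 ± 3.04 CPM in high libraries and 21.95 ± 19.9 CPM in low libraries (edgeR adjusted p = 0.0210). piR-dre-690731 averaged 4.35 ± 3.51 CPM in high libraries and 48.7 ± 54.6 CPM in low libraries (edgeR adjusted p = 0.0224). Of the 432 entries 3 did not overlap between the classes (0.694%): piR-dre-754808, piR-dre-801577 and piR-dre-755484, named after their values were seen. piR-dre-754808 was at 1.47 to 7.98 CPM in high libraries and 7.99 to 43.7 CPM in low libraries, so its classes all but touched. All 3 had the same lowest and highest level in high libraries. piR-dre-801577 and piR-dre-755484 had 74 and 73 reads in high libraries and 313 and 311 in low libraries. The 3 are thus not separate cases. Over the 16 entries that passed, the median correlation between pairs was 0.84, which their selection partly builds in.

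Some reverse entries had nearly the same counts as a forward one. piR-dre-1067962 had 5069 reads over the 15 libraries and the forward piR-dre-1078576 had 5084, with a difference of at most 4 reads in any library. piR-dre-603835 had 1423 reads and the forward piR-dre-645797 had 1434, with a difference of at most 18. The reverse piR-dre-1142334 and the forward piR-dre-1146809 had the same count in every library, 278 reads in all. In all, 5 of the 16 reverse entries had a forward partner among the 77 that differed by under 10% of its reads. Whether these pairs count the same reads was not tested.

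**Figure D5:**
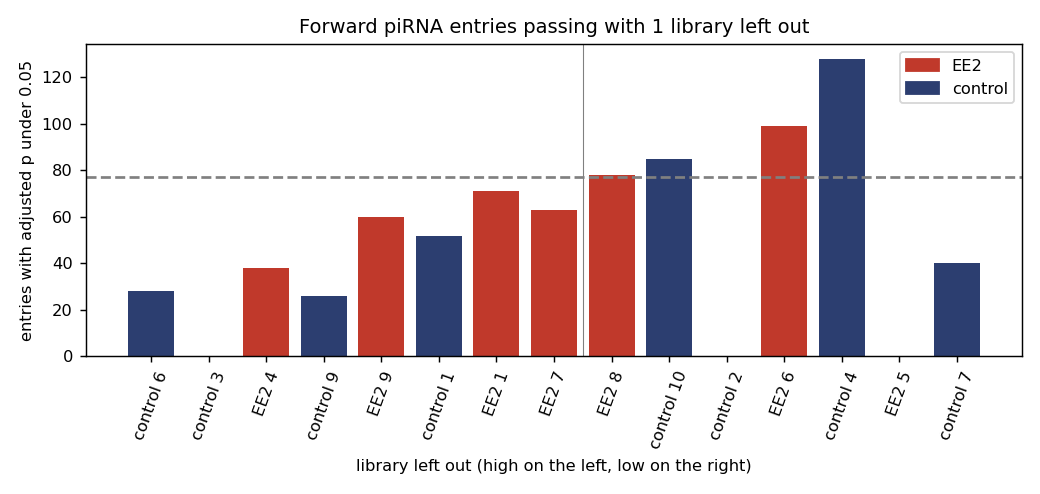
Number of forward piRNA entries with an adjusted p under 0.05 (edgeR's quasi-likelihood test, y axis) when the library on the x axis is left out, with the number in all 15 libraries, 77, as a dashed line. It is 0 without control 3, control 2 or EE2 5 and 128 without control 4 (124 lower and 4 higher in high libraries).

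Within each exposure the piRNA entries kept their direction. All 77 had a lower mean CPM in high than in low libraries after EE2, and all 77 did in controls, in the same libraries on which they were selected. In EE2 libraries alone (4 high and 3 low) 5 of 1796 entries passed with edgeR's test, of which 4 were among the 77, and the 77 had a median log2 fold change of -1.76, against 0.08 over all entries. In control libraries alone (4 high and 4 low) 0 of 1754 passed and 169 had an unadjusted p under 0.05. The 76 of the 77 tested there had a median of -2.09, against 0.13 over all entries. For piR-dre-644638 the log2 fold change was -4.70 in EE2 libraries (edgeR adjusted p = 0.0258) and -4.14 in control libraries (adjusted p = 0.437). A difference between the exposures was not detected by edgeR's interaction term, which called 0 of 1725 forward piRNA entries (241 at an unadjusted p under 0.05) and 0 of 485 miRNA entries (10 at an unadjusted p under 0.05). At that unadjusted threshold 86.25 of the 1725 are expected. Of the 77 entries 0 had an unadjusted interaction p under 0.05 in edgeR's test. They were selected on a class difference over both exposures in these libraries, so that count is not a separate test. DESeq2's interaction term called 36 of 1725 forward piRNA entries and 0 of 485 miRNA entries.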

How the data were processed

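Small RNA libraries of 10 EE2 and 10 control samples were prepared with a TruSeq Small RNA kit (labels' protocols). Reads were mapped by the authors to known fathead minnow miRNA and zebrafish piRNA sequences, per the labels' design text. The submitters' processing notes list Bowtie 1.2.3 and bcl2fastq 2.19.1, beside edgeR 3.26.8 and limma 3.40.6, with no settings. Values are the deposited read counts, whole numbers to which the authors had applied no normalization. F and R tables were taken as forward and reverse strands, which no label states. Totals were 8.72 to 24.1 M counts per library (forward miRNA), 65152 to 211513 (reverse miRNA), 1.02 to 3.08 M (forward piRNA) and 56993 to 170677 (reverse piRNA).

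The class was taken from novelMiR_18155 in the same libraries, so p-values treat as fixed a split that the data gave. Entries and lists were chosen with earlier results of these data known. High against low was tested with edgeR 4.0.16 (filterByExpr with its minimum count of 10, TMM, robust quasi-likelihood F test, exposure as covariate, Benjamini-Hochberg over each table, threshold 0.05; R 4.3.3), and the fit was tested on simulated data. The simulated entries were drawn independently with the classes held fixed. That test therefore does not cover entries that vary together or a split that the data gave. The filter kept 485, 50, 1725 and 432 entries of 528, 57, 2025 and 584. Reverse tables used forward totals and factors. Named entries are the 15 smallest p among those passing in a forward table and the 5 in a reverse one. Where fewer than 6 passed in a forward table, the 3 smallest p in each direction were added, and where none passed in a reverse one, the smallest in each. The 3 most abundant miRNAs and piR-dre-644638 were also named. Alternatives were DESeq2 1.42.0 with the same factors, limma 3.58.1 (voom), other scalings, no filter, no exposure term, a replicate block, class thresholds of 5 and 20, a continuous term, each exposure alone, and each library left out. Library measures were compared by permutation within exposure over all splits (52920 for 20 libraries, 2450 for 15).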

Additional observations from a re-analysis of the deposited data

Results flagged for a closer look

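Of 64 groups of libraries examined, 5 held a library set apart from the rest by more than Dixon's 95% value, and chance gives about 3.2. The high class in the miRNA tables has more than 10 libraries and was not examined. On the log2 scale of CPM plus 0.5, control 1 stood above the other high libraries for piR-dre-1169243 (5.04, the next 2.66), piR-dre-676133 (3.38, the next 1.77) and piR-dre-712769 (5.76, the next 2.96). These entries vary together, so the 3 are not separate cases. EE2 7 stood below the other high libraries for piR-dre-645797, at -1 against 1.32, with 0 reads. EE2 6, a low library, had 22.2 piRNA reads per 100 miRNA reads, the next low library 13.7.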

How the results depend on the processing

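DESeq2 without the filter, and leaving out control 2, control 7 and EE2 5 together, were chosen after seeing the data. Class thresholds of 5 and 20 rpm gave the same classes. Forward miRNA calls, 0 in the fit reported, were 34 with DESeq2 with or without the filter and 0 to 40 with 1 library left out. Reverse miRNA calls, also 0, were 1 with DESeq2 with or without the filter, 3 with the replicate block and 0 to 3 with 1 library left out. Forward piRNA calls, 77, were 131 without the filter, 117 with DESeq2, 195 with both, 0 with limma voom, the replicate block, controls alone or without control 2, control 7 and EE2 5, 5 in EE2 libraries alone and 0 to 128 with 1 library left out. Reverse piRNA calls, 16, were 10 scaled by library size alone, 47 without the filter, 72 without it with DESeq2, 26 with the continuous term, 0 with limma voom, the replicate block or either exposure alone, 2 without the 3 libraries and 0 to 33 with 1 library left out. DESeq2's interaction gave 36 forward piRNA calls against 0. No entry named by the rules given above changed direction in any of these fits in which it had an adjusted p. Other entries named in the text were not followed across the fits. No label states whether same-numbered control and EE2 libraries were paired. The correlations of their deviations from the exposure means ran from -0.42 to 0.18 over 10 miRNA pairs (1 over 0.1). Over 5 piRNA pairs they ran from -0.29 to 0.20 (2 over 0.1). The class difference stays in these deviations, and so few pairs cannot settle whether the numbers are blocks.

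With 1 library left out, the class difference of library measures ran from -2.91 to -1.46 M forward miRNA reads, -0.0127 to 0.0180 percentage points of reverse miRNA reads, -1.33 to -0.333 miRNA entries, -0.301 to 0.815 percentage points for the 10 most abundant, -0.570 to -0.272 M forward piRNA reads, -0.267 to 0.211 percentage points of reverse piRNA reads, -31.5 to -20.3 piRNA entries (the first passing, adjusted p = 0.0261, without control 1) and -1.79 to 1.01 piRNA reads per 100 miRNA reads. Without exposure kept fixed the reverse piRNA difference was -0.0267 against 0.0000525. The cause of these changes was not tested. For 883 of 1725 forward piRNA entries the 95% interval reached beyond a 2-fold difference; how much of this width is read depth and how much spread between libraries was not tested.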

Other observations

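novelMiR_18155 was not alone in having a gap between libraries. Of 528 forward miRNA entries 3 had a gap of 2 or more on the log2 scale of rpm plus 0.5, and the others, named after their values were seen, split the libraries differently. novelMiR_29243 was at 0.917 rpm or less in 5 libraries and at 8.82 or more in 15, and the 5 held 2 of the 9 libraries low in novelMiR_18155. novelMiR_44607 was at 0.216 or less in 4 libraries and at 2.95 or more in 16, and all 4 were low in novelMiR_18155, as were 5 of the 16. Neither passed between high and low libraries: novelMiR_29243 had a log2 fold change of 0.08 ± 0.74 (SE; edgeR adjusted p = 0.974) and novelMiR_44607 of 1.09 ± 0.64 (SE; edgeR adjusted p = 0.395). Of 2025 forward piRNA entries 9 had a gap of 2 or more.

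The forward miRNA calls made without control 1 (40 entries), without control 4 (29) and by DESeq2 on all libraries (34) had 15 entries in common. Of these, 3 were higher and 12 lower in high libraries. The fits share most of their libraries, and control 1 and control 4 were picked because leaving them out gave many calls. The overlap is thus a description and not a separate test. Beyond those already given, the lower ones, named after their values were seen, included novelMiR_75, at 28.9 ± 23.5 CPM in high libraries and 86.5 ± 68.2 CPM in low libraries (SD, n = 11 and 9; edgeR adjusted p = 0.0751 in all libraries). novelMiR_17433 was the second most abundant of the 15, at 935 ± 300.1 CPM in high libraries and 1622 ± 696 CPM in low libraries (edgeR adjusted p = 0.0876 in all libraries). Only novelMiR_24836 was more abundant, at 1498 ± 711 CPM in high libraries and 2498 ± 1194 CPM in low libraries (edgeR adjusted p = 0.136 in all libraries).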
